A study of Mus musculus with 6 samples.

Results

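The interferon regulatory factor (IRF) family of transcription factors was followed in mouse HOXB-8 cells, myeloid progenitors of bone marrow origin that a homeobox protein keeps dividing. Its 8 members named here, Irf1, Irf2, Irf3, Irf4, Irf5, Irf7, Irf8 and Irf9, were found by their Entrez gene IDs among the 36528 IDs of the deposited tables. The RNA came from 6 libraries. The 3 labelled IRF2_KO came from cells given a guide RNA against Irf2, and the 3 labelled Parental came from Irf2 wild-type cells, whose control guide RNA is given as Luc. The extraction notes call both lines iMACs, and neither they nor the labels name a stimulus, say whether the knockout line is a single clone, or state that replicate libraries came from separate cultures. The p-values therefore cover the spread among these libraries alone, and that spread may be technical.

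IRF proteins share an amino-terminal DNA-binding domain that recognises GAAA repeats, the core of the interferon-stimulated response element. IRF1 and IRF2 bind the same elements, where IRF2 is best known for opposing activation by IRF1. IRF3, IRF5 and IRF7 are phosphorylated downstream of pathogen sensors and switch on interferon genes, IRF9 joins STAT proteins in the complex ISGF3 that answers type I interferon, and IRF4 and IRF8 pair with the factor PU.1 in blood cells.

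Across the family, 5 members rose in IRF2_KO, 2 (Irf2 and Irf3) did not pass the test, and Irf4 had too few reads to be tested. Irf7 rose 18.8-fold, Irf9 rose 5.47-fold, Irf5 and Irf8 rose 2.08-fold and 2.09-fold, and Irf1 rose 1.25-fold. The test was edgeR's quasi-likelihood test over 13353 genes adjusted by Benjamini-Hochberg and called at an adjusted p under 0.05. It called 47.2% of all tested genes, 23.6% higher and 23.6% lower. Of the 7 members tested, 6 had groups whose CPM ranges did not overlap, against 54% of all genes tested. The median log2 fold change of these 7 was 1.05 and that of all genes tested was -0.01. Levels in CPM express the count of a gene relative to the TMM-scaled library total. Library totals lay between 29070160 and 34051219 reads in IRF2_KO and between 33422590 and 39925038 reads in Parental.

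**Figure D1:**
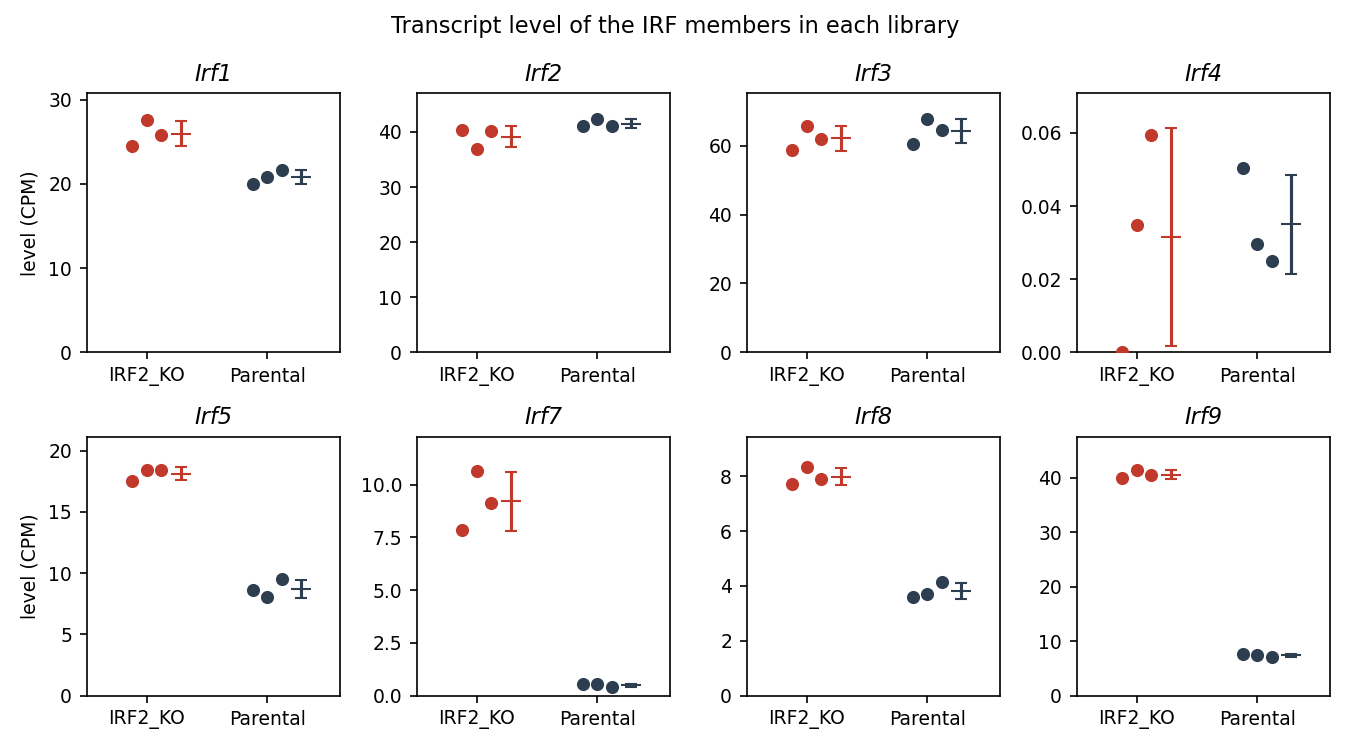
Level of each member in CPM (vertical axes, from 0) in the 3 IRF2_KO and 3 Parental libraries (points), with the mean and SD of each group beside them (bars). The IRF2_KO points lie above the Parental points for Irf1, Irf5, Irf7, Irf8 and Irf9, whereas those of Irf3 overlap and Irf4 stays under 0.1 CPM.

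Irf2, the targeted gene (Entrez 16363, chromosome 8, 46739745 to 46847458, GRCm38, plus strand), had 40.3, 37.0 and 40.1 CPM in the IRF2_KO libraries, against 41.1, 42.4 and 41.1 CPM in the Parental libraries. Every IRF2_KO library was slightly below every Parental library. The difference did not pass the test, with a log2 fold change of -0.08 (SE 0.05, 95% interval -0.20 to 0.03, edgeR adjusted p = 0.209). Since an edited gene can still be transcribed and a count per gene shows no bases at the edit, the level of Irf2 does not check the labels.

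Irf1 (Entrez 16362, chromosome 11, 53770014 to 53778374), the activator that shares its sites with IRF2, had 24.5, 27.6 and 25.9 CPM in IRF2_KO, against 19.99, 20.8 and 21.7 CPM in Parental. The groups did not overlap, and Irf1 was the member with the smallest called change (log2 fold change 0.32, SE 0.06, edgeR adjusted p = 0.000505). Its call ended when the test asked for more than 1.5-fold. Per length of transcript, Irf1 stood at 1.01 ± 0.108 times the RPKM of Irf2 in IRF2_KO and at 0.757 ± 0.0343 times in Parental (SD, n = 3 each). The 3 ratios of IRF2_KO were all above the 3 of Parental.

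The promoters of Irf2 and Irf1 are shown because they differ in the letters that IRF proteins bind. That of Irf8 is shown for its STAT-type matches. Those of Irf7 and Irf9, the members with the largest rises, are shown for comparison. Each run is the RefSeq window on GRCm38.p6, 250 bases before to 50 after an annotated start, in the direction of transcription. Capitals mark matches, on either strand, to 4 motifs: the GAAA repeat (GAAA, any 2 bases, GAAA), the ETS and IRF composite (GGAA, any 2 bases, GAAA), the IRF core AANNGAAA, which lies within both, and the STAT element TTCNNNGAA, which is its own reverse complement. The Irf2 window (chr8:46739495-46739794, plus strand) holds all 4, and the Irf1 window (chr11:53769764-53770063, plus strand) holds TTCNNNGAA. The Irf8 window (chr8:120736108-120736407, plus strand) holds TTCNNNGAA at 2 places, and the windows of Irf7 (chr7:141266375-141266674, minus strand) and Irf9 (chr14:55603735-55604034, plus strand) hold none of these letters.
Irf2: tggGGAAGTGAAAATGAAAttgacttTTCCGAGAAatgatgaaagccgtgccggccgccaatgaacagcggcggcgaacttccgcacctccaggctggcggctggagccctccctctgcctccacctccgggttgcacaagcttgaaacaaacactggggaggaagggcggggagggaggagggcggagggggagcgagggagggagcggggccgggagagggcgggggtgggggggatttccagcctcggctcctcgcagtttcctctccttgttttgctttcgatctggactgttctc
Irf1: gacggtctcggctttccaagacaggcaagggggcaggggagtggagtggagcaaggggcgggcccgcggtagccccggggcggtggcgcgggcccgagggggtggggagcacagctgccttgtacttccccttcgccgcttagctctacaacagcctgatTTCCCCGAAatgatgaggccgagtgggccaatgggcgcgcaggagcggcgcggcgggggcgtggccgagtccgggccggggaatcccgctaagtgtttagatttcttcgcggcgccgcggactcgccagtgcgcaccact
Irf8: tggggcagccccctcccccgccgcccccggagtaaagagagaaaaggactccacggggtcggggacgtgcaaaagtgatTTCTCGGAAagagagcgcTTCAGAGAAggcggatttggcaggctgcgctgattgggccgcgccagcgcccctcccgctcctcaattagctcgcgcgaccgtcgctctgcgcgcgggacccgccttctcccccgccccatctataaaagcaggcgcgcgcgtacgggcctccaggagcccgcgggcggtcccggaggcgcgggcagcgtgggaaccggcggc
Irf7: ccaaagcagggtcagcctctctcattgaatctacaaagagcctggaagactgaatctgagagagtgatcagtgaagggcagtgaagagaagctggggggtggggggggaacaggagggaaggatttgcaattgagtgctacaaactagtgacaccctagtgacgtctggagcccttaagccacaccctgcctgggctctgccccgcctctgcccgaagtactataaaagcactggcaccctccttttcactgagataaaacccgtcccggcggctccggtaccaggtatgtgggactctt
Irf9: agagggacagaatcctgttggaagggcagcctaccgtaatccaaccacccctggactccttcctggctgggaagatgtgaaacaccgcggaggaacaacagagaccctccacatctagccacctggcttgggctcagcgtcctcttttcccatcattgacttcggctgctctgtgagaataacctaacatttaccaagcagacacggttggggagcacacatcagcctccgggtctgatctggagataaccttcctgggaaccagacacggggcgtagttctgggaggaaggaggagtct

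In the Irf2 window, GGAAGTGAAA (46739498 to 46739507) and GAAAATGAAA (46739504 to 46739513) overlap, and TTCCGAGAA (46739521 to 46739529) follows them. Irf2 was the only one of the 8 members with the GAAA repeat in a RefSeq window, a motif that 3.81% of the 9884 tested genes with a window of this length hold. The ETS and IRF composite was held by 2.77% of these genes and AANNGAAA by 20.9%, and among the members by Irf2 alone. TTCNNNGAA was found for Irf1, Irf2 and Irf8, against 8.51% of tested genes. The looser NF-kB-type letters (GGG, any 5 bases, CC), left in lower case, were found for all 8 members and for 70.9% of tested genes. Irf1, Irf8 and Irf9 each have a second window, and those windows hold none of the 4 marked motifs. The same members held each motif when only the 250 bases before the start were searched. A match is a run of letters and not a shown binding site.

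Irf9 (Entrez 16391, chromosome 14, 55603985 to 55610030), the DNA-binding subunit of ISGF3, had 39.9, 41.4 and 40.4 CPM in IRF2_KO, against 7.60, 7.54 and 7.11 CPM in Parental. The libraries of a group lay close together and the groups were far apart. The log2 fold change was 2.45 (SE 0.06, edgeR adjusted p = 2.31e-15), and 0.861% of tested genes rose more. Irf9 stood at 2.01 ± 0.138 times the RPKM of Irf2 in IRF2_KO and at 0.345 ± 0.0115 times in Parental.

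Irf7 (Entrez 54123, chromosome 7, 141263183 to 141266499, minus strand), the factor that amplifies interferon production, had 234, 305 and 307 reads in the IRF2_KO libraries, against 21, 18 and 16 reads in the Parental libraries. Scaled to CPM these were 7.86, 10.6 and 9.13 in IRF2_KO, against 0.530, 0.534 and 0.398 in Parental. Irf7 was thus low in every Parental library, and its IRF2_KO libraries varied more among themselves than those of Irf9. It had the largest change of the family (log2 fold change 4.24, SE 0.18, edgeR adjusted p = 1.38e-12), and 0.307% of tested genes rose more. The fold rests on 55 Parental reads in all and is smaller where a constant is added to the level: on log2(RPKM + 1) it was 2.18.

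Irf3 (Entrez 54131, chromosome 7, 44997648 to 45002848), the factor that starts interferon transcription once phosphorylated, had 58.7, 65.8 and 61.9 CPM in IRF2_KO, against 60.6, 67.7 and 64.7 CPM in Parental. The groups overlapped. Its log2 fold change of -0.05 did not pass the test (SE 0.05, 95% interval -0.17 to 0.07, edgeR adjusted p = 0.483).

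Irf5 (Entrez 27056, chromosome 6, 29526130 to 29541869), which acts below Toll-like receptors in myeloid cells, had 17.5, 18.4 and 18.5 CPM in IRF2_KO, against 8.61, 8.01 and 9.50 CPM in Parental. The groups were well apart, with a log2 fold change of 1.05 (SE 0.08, edgeR adjusted p = 5.02e-09). Relative to Irf3 in RPKM, Irf5 stood at 0.226 ± 0.00825 in IRF2_KO and at 0.105 ± 0.0117 in Parental.

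Irf8 (Entrez 15900, chromosome 8, 120736358 to 120756694), which mouse progenitors need to form monocytes and dendritic cells, had 7.73, 8.33 and 7.91 CPM in IRF2_KO, against 3.61, 3.71 and 4.13 CPM in Parental. Again no library of a group reached into the other, and the log2 fold change was 1.06 (SE 0.10, edgeR adjusted p = 1.44e-07). Irf4 (Entrez 16364, chromosome 13, 30749233 to 30766981), a factor of lymphocytes and some dendritic cells, had 0, 1 and 2 reads in the IRF2_KO libraries and 2, 1 and 1 reads in the Parental libraries. Each of these lies under 3 reads per library, and no fold is given.

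**Figure D2:**
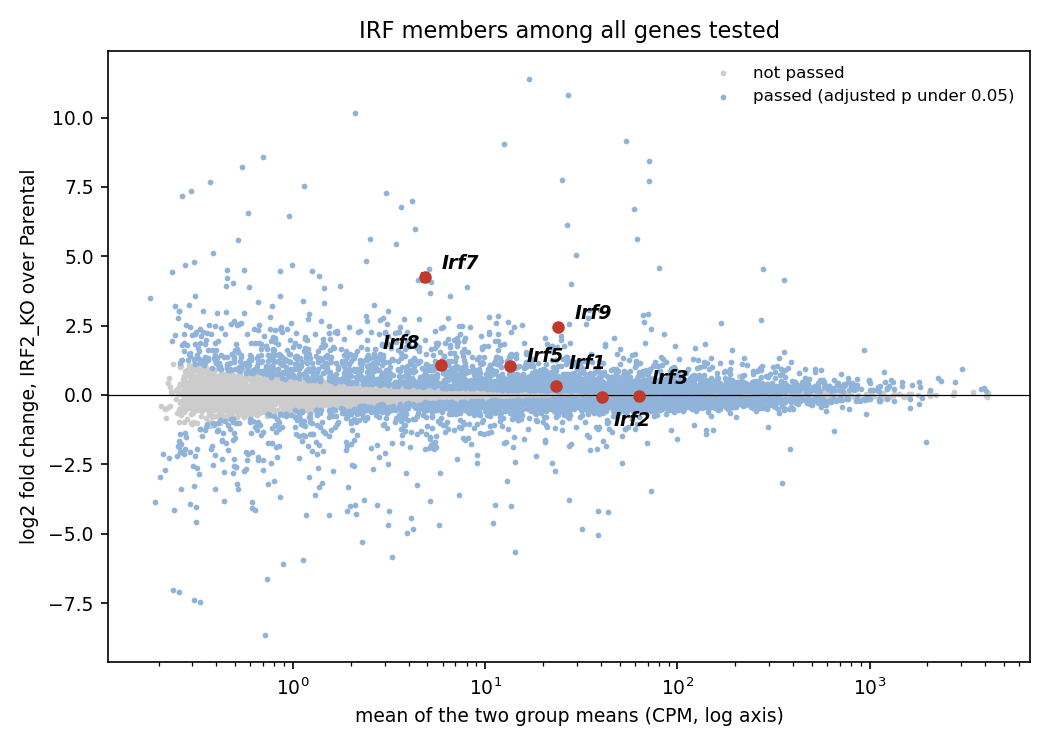
Log2 fold change of IRF2_KO over Parental (vertical axis) against the mean of both group means in CPM (horizontal log axis) for the 13353 genes tested. Pale blue points passed the test, grey points did not, and red points with SE bars are the 7 tested IRF members, with Irf7 at 4.24 and Irf9 at 2.45 above Irf5, Irf8 and Irf1, and Irf2 and Irf3 near 0.

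Levels of different members can be compared only per length, for which the authors' size-factor-adjusted RPKM was used. In IRF2_KO the order by mean RPKM was Irf3 (25.6), Irf9 (14.8), Irf1 (7.38), Irf2 (7.36), Irf5 (5.77), Irf7 (4.66), Irf8 (2.29) and Irf4 (0.00643). In Parental it was Irf3 (26.4), Irf2 (7.77), Irf1 (5.88), Irf5 (2.75), Irf9 (2.68), Irf8 (1.09), Irf7 (0.245) and Irf4 (0.00711). Irf3 led and Irf4 closed the order in both groups, while Irf9 stood next to Irf3 in IRF2_KO and below Irf2, Irf1 and Irf5 in Parental. The library ranges of neighbours in the order overlapped for Irf1 and Irf2 in IRF2_KO and for Irf5 and Irf9 in Parental, and for no other neighbours. Among all tested genes, 62.0% had a lower mean RPKM than Irf9 in IRF2_KO and 28.6% in Parental, whereas for Irf3 the shares were 74.9% in IRF2_KO and 75.4% in Parental.

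Summed over the 8 members, the RPKM was 67.8 ± 3.14 in IRF2_KO and 46.8 ± 1.55 in Parental. Irf9 made up 21.8 ± 0.495% of this sum in IRF2_KO and 5.74 ± 0.342% in Parental. Irf7 made up 6.84 ± 0.752% in IRF2_KO and 0.525 ± 0.0896% in Parental. The share of Irf3, whose own level did not pass the test, was 37.7 ± 0.615% in IRF2_KO and 56.3 ± 1.19% in Parental. That of Irf2 was 10.9 ± 0.937% in IRF2_KO and 16.6 ± 0.435% in Parental. The make-up of the family was alike within each group and differed between them, with Irf9 gaining the largest part. These shares are a description without a test.

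**Figure D3:**
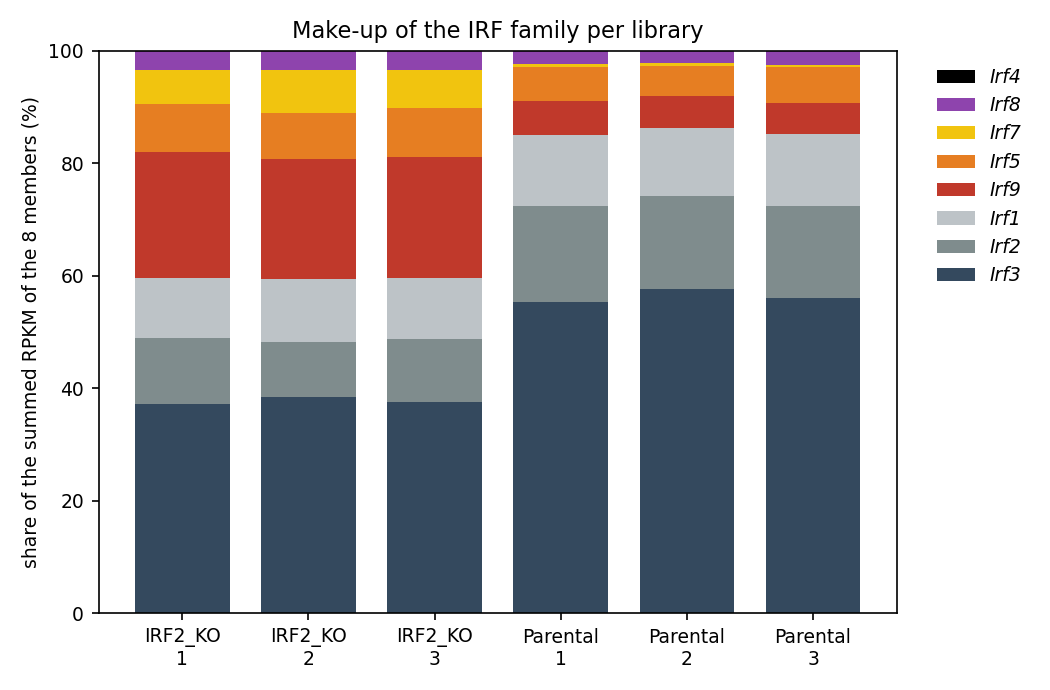
Share of each member in the summed RPKM of the 8 members (vertical axis, percent) for the 3 IRF2_KO libraries and the 3 Parental libraries (bars). Irf9 takes 21.8% on average in IRF2_KO and 5.74% in Parental, and Irf3 takes 37.7% in IRF2_KO and 56.3% in Parental.

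The genes around the family were read from lists. Of the 20 interferon genes listed, the products that IRF3 and IRF7 induce and ISGF3 answers, 18 had no read in any of the 6 libraries. The exceptions were Ifnb1, with 0, 2 and 1 reads in the IRF2_KO libraries and none in Parental, and Ifnk, with 0, 1 and 0 reads in IRF2_KO and 2, 0 and 1 in Parental. No interferon gene passed the filter on low counts, and 3 reads correspond to 0.0751 to 0.103 CPM at these depths. Among interferon receptors, 1 of 5 tested rose and 3 fell, all by less than 1.25-fold, where 23.6% of all genes were called in each direction. Ifnar2, a chain of the type I receptor, had 121 ± 3.29 CPM in IRF2_KO and 101 ± 4.13 CPM in Parental (log2 fold change 0.26), and Ifngr1, the ligand-binding chain of the interferon-gamma receptor, had 517 ± 7.12 CPM in IRF2_KO and 578 ± 12.2 CPM in Parental (-0.16). The fall of Ifnar1 (-0.13) was not called without Parental 3, without IRF2_KO 2 or without IRF2_KO 3, and that of Il10rb (-0.16) was not called without IRF2_KO 3.

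Of the JAK kinases and STAT partners listed, 4 of 5 rose, against 23.6% of all genes, and Stat3 did not pass the test (log2 fold change -0.03). Stat2, a partner of IRF9 in ISGF3, had 52.8 ± 1.34 CPM in IRF2_KO and 36.8 ± 0.280 CPM in Parental (log2 fold change 0.52, SE 0.05), a smaller change than that of Irf9. The kinase genes Tyk2, Jak2 and Jak1 rose by 0.26, 0.22 and 0.16 on the log2 scale. Of 17 genes listed as ISGF3 targets, all 14 that could be tested rose (14 of 14, against 23.6% of all genes higher), and the list includes Stat2. Their median log2 fold change was 7.60, and 6.46 with Ifit3 and Xaf1, which had no Parental read, set at a lower bound of 3 Parental reads over the group. Oas3, an oligoadenylate synthetase, had 108 ± 3.49 CPM in IRF2_KO and 0.186 ± 0.0323 CPM in Parental, and Rsad2, the antiviral enzyme viperin, had 143 ± 7.0 CPM in IRF2_KO and 0.407 ± 0.165 CPM in Parental. Ifit3 had 129 reads in IRF2_KO in all, at least 51.9-fold higher than the Parental floor, and Xaf1 had 385 reads, at least 155-fold higher. Mx1, Mx2 and Ifi44 were too low to test, and a listed gene with almost no Parental reads could be tested only where it was high in IRF2_KO. This list was chosen with the rise of such genes in these libraries known, so its count is no independent evidence of the direction.

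Feedback inhibitors of the pathway rose in 3 of 6 tested genes, against 23.6% of all genes higher, and the other 3 did not pass. The share called in either direction was near the 47.2% of all genes. Socs1, which blocks JAK kinases, had 21.9 ± 0.268 CPM in IRF2_KO and 10.4 ± 0.0873 CPM in Parental (log2 fold change 1.07, SE 0.07). Usp18, which holds back signalling at IFNAR2 and is also in the target list, had 52.6 ± 1.76 CPM in IRF2_KO and 0.740 ± 0.151 CPM in Parental. Pias1, an inhibitor of STAT signalling, rose by 0.23, whereas Ptpn2, Ptpn6 and Socs3 had log2 fold changes of -0.10, 0.01 and -0.02.

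Upstream of IRF3, IRF5 and IRF7, 7 of 17 tested sensors, adaptors and kinases rose, 2 fell and 8 did not pass, against 23.6% of all genes in each direction, so that the share called in all was near the 47.2% of all genes. Rigi and Tasl could not be matched by name. Tlr7, an endosomal RNA sensor that signals to IRF5 and IRF7, had 3.70 ± 0.671 CPM in IRF2_KO and 1.18 ± 0.278 CPM in Parental (log2 fold change 1.66, SE 0.19). Sting1, the adaptor of cytosolic DNA sensing, had 14.2 ± 0.266 CPM in IRF2_KO and 22.4 ± 1.45 CPM in Parental (-0.66, SE 0.07). Ifih1, a sensor of long double-stranded RNA, rose by 0.52 on the log2 scale and Cgas, a DNA sensor, by 0.33. Tbk1, the kinase of IRF3, did not pass (-0.04), and its relative Ikbke rose by 0.27. The calls of Slc15a4, Ticam2, Traf6 and Irak1, each with a change of 0.19 or less on the log2 scale, were not all kept when a library was left out: each was lost without Parental 2 and without Parental 3, those of Ticam2, Traf6 and Irak1 also without IRF2_KO 1 and without IRF2_KO 3, and that of Irak1 also without IRF2_KO 2.

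Of 5 tested partners with which IRF4 and IRF8 bind DNA, 2 fell, against 23.6% of all genes, and 3 did not pass. Spi1, which encodes PU.1, had 250 ± 14.6 CPM in IRF2_KO and 244 ± 6.33 CPM in Parental and did not pass (log2 fold change 0.03). Tcf3, an E protein, fell by 0.18 on the log2 scale and Batf, an AP-1 family factor, by 0.22, and the call of Batf was lost without Parental 2, Parental 3 or IRF2_KO 3. Spib, Batf2 and Batf3 were too low to test.

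Cofactors and regulators of IRF proteins rose in 5 of 11 tested genes and fell in 3, against 23.6% of all genes in each direction. Trim21, a ubiquitin ligase that acts on several IRF proteins, had 19.5 ± 0.390 CPM in IRF2_KO and 5.51 ± 0.50 CPM in Parental (log2 fold change 1.83, SE 0.08). The acetyltransferase paralogs moved in opposite directions: Kat2b, which encodes PCAF, had 42.1 ± 3.60 CPM in IRF2_KO and 22.1 ± 1.20 CPM in Parental (0.93, SE 0.07), and Kat2a, which encodes GCN5, had 84.3 ± 5.0 CPM in IRF2_KO and 118 ± 7.58 CPM in Parental (-0.49, SE 0.06). Rbck1, which encodes a subunit of the linear ubiquitin ligase, rose by 0.36. Of the genes named for a product that binds IRF2 or resembles one, Irf2bp2 and Irf2bpl rose by 0.13 and 0.26, and Irf2bp1 fell by 0.19, a call that was lost without Parental 2. Nlrc5, the activator of MHC class I genes, did not pass (-0.48, SE 0.21).

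**Figure D4:**
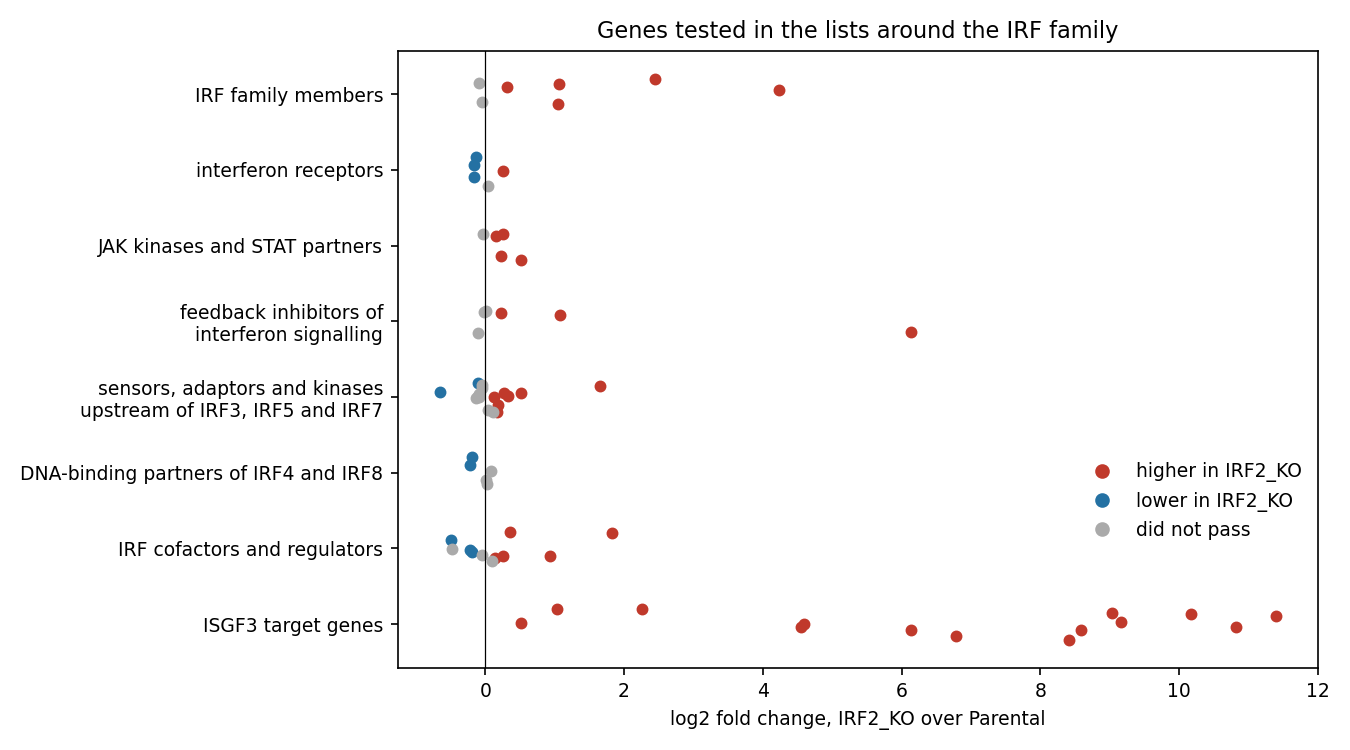
Log2 fold change of IRF2_KO over Parental (horizontal axis) for each tested gene of the IRF family and of 7 lists around it (rows), red where higher in IRF2_KO, blue where lower and grey where the test was not passed. All 14 tested ISGF3 targets lie right of 0, while the partners of IRF4 and IRF8 lie within 0.22 of it; the values of Ifit3 and Xaf1, with no Parental read, are fitted and depend on the prior count.

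Genes next to the members on the chromosome were read for comparison. Of 17 neighbours tested, 3 were higher, 4 were lower and 10 did not pass, near the 23.6% of all genes called in each direction, and the largest change among them was 0.59 on the log2 scale. Rnf31, which encodes the catalytic subunit of the linear ubiquitin ligase, ends 310 bases before Irf9 on the same strand and had 39.5 ± 2.88 CPM in IRF2_KO and 28.2 ± 1.61 CPM in Parental (log2 fold change 0.49, SE 0.06, edgeR adjusted p = 6.18e-06). Ipo4 on the other side of Irf9 fell by 0.20, a call that was lost without Parental 2. Mthfsd, beyond Irf8, fell by 0.34, and Ahcyl2, beyond Irf5, by 0.17. Exoc2 beside Irf4 (0.11) was not called once any library was left out, nor was Slc22a5 beside Irf1 (-0.22) without Parental 2, Parental 3 or IRF2_KO 3. Phrf1, 431 bases from the end of Irf7 on the opposite strand, did not pass (-0.09), nor did Bcl2l12 (-0.06), whose start lies 9 bases from that of Irf3.

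Gm16675, a gene on the opposite strand that starts 229 bases from Irf2, was the neighbour with the largest change, with 1.09 ± 0.147 CPM in IRF2_KO and 0.721 ± 0.0702 CPM in Parental (log2 fold change 0.59, SE 0.23, edgeR adjusted p = 0.0473). The overlapping GAAA-type matches shown for Irf2 lie within the first bases of its annotated span (46730970 to 46739515). Its call was lost whenever any of the 6 libraries was left out. Tnpo3, which overlaps the end of Irf5 on the opposite strand, had 217 ± 8.58 CPM in IRF2_KO and 225 ± 5.33 CPM in Parental and did not pass (-0.05). Whether strand was used in counting is not given in the sources used here, so reads in that overlap cannot be told apart.

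**Figure D5:**
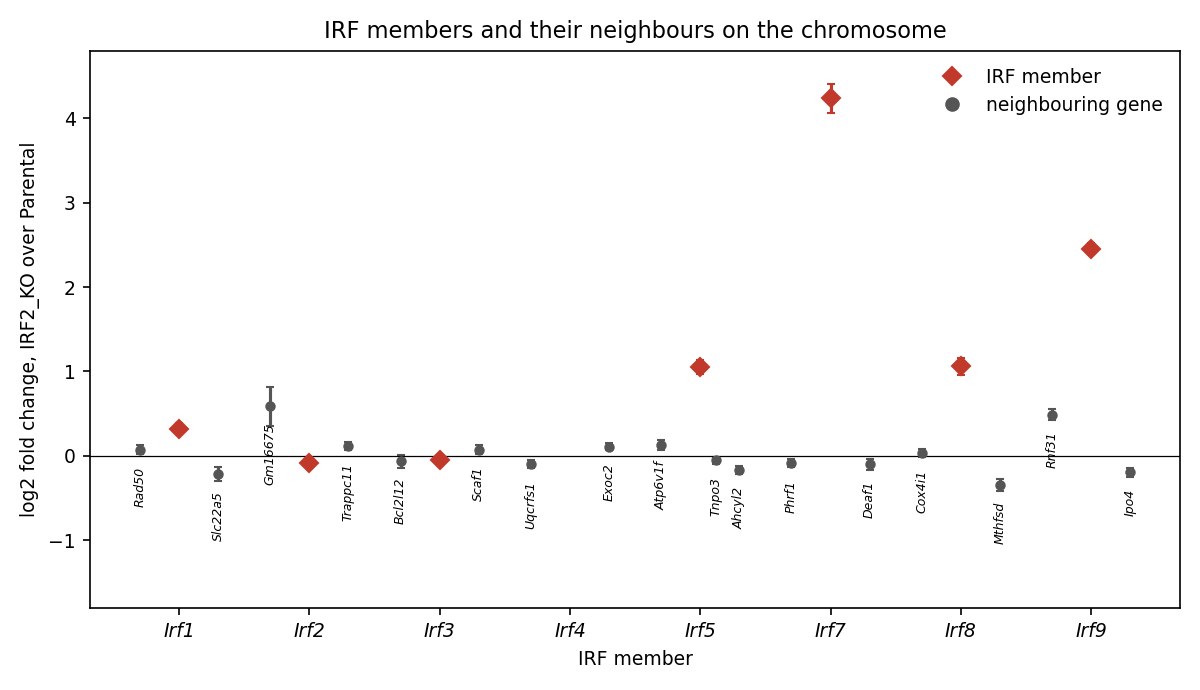
Log2 fold change of IRF2_KO over Parental with SE (vertical axis) for each tested IRF member (red diamonds) and its nearest tested or overlapping genes (grey points), placed by member. Irf5, Irf7, Irf8 and Irf9 lie above 1, and no neighbour exceeds 0.59; Irf4 has no red point because it was too low to test.

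Genes whose pattern over the 6 libraries was most like that of a member were found by the root mean square difference of log2 CPM, each centred on the Parental mean. The profiles were not scaled, so a small difference mostly means a fold change of like size. Shared regulation was not tested. Nearest to Irf7 were Lgals3bp, a secreted galectin-binding protein (difference 0.17), Isg15, a ubiquitin-like modifier (0.23), and Myom1 (0.27). Nearest to Irf9 were Pkdcc, Prkch, a protein kinase C, and Marchf1, a ubiquitin ligase of MHC class II (0.07 to 0.08). Nearest to Irf5 was Irf8 itself (0.05), followed by an ID with no name in the tables used, Entrez 15051 (0.05), and H2-T22, a non-classical class I gene (0.06). Nearest to Irf8 were Gsn, which encodes gelsolin, Cxcr2, a neutrophil chemokine receptor, and Entrez 15051 (0.04 each). Uniquely aligned reads undercount class I genes that resemble each other, so the value of H2-T22 is uncertain.

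Markers of the cells a culture of this origin could hold were read beside these results. Hoxb8, the gene that defines the line, had 135 ± 8.95 CPM in IRF2_KO and 127 ± 2.08 CPM in Parental. Of 9 tested progenitor markers 1 rose and 5 fell, against 23.6% of all genes in each direction. Their list summed to 11021 to 12519 CPM in IRF2_KO and 13237 to 14240 CPM in Parental. Elane, with 924 ± 72.2 CPM in IRF2_KO and 2989 ± 98.9 CPM in Parental, fell by more than the mean list sum did. The sum therefore does not describe the whole list. Ctsg rose by 0.13 on the log2 scale, and Prtn3, Ms4a3 and Hoxb8 did not pass. The log2 fold changes of Myb, Mpo, Flt3 and Elane were -0.44, -0.52, -0.85 and -1.69. Kit, the stem cell factor receptor, had the largest fall of the list (-3.26), with 0.827 ± 0.181 CPM in IRF2_KO and 8.04 ± 0.145 CPM in Parental. Cd34 was too low to test.

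Macrophage markers rose in 9 of 11 tested genes, against 23.6% of all genes tested, and summed to 1677 to 1682 CPM in IRF2_KO and 572 to 583 CPM in Parental. The 9 include Siglec1, with 57, 53 and 66 reads in IRF2_KO and 2, 4 and 2 reads in Parental. It could be tested only because it was high in IRF2_KO. Among those that rose, Lpl, a lipoprotein lipase, had 472 ± 15.0 CPM in IRF2_KO and 71.8 ± 1.23 CPM in Parental, and Csf1r, the receptor of the macrophage growth factor CSF1, had 17.97 ± 0.959 CPM in IRF2_KO and 4.62 ± 0.0535 CPM in Parental. C1qb had no read, C1qa, C1qc and Marco had at most 1 read in any library, and Cd163 had none in IRF2_KO. Dendritic cell markers rose in 5 of 7 tested genes and fell in 1, against 23.6% of all genes in each direction. They summed to 222 to 256 CPM in IRF2_KO and 89.0 to 97.2 CPM in Parental, with Cd209a and Siglech at 0 reads. Neutrophil markers rose in 6 of 11 and fell in 2, against the same 23.6% in each direction. Their log2 fold changes ran from 1.38 for Ltf to -0.92 for Camp. They summed to 399 to 409 CPM in IRF2_KO and 341 to 349 CPM in Parental. The macrophage sum was carried by Lpl, Gpnmb and Lyz2, and the dendritic sum by Bst2, which interferon also induces, so the sums do not describe a whole marker list. Macrophages and dendritic cells are known to express Irf5 and Irf8. The part of these markers in the levels of the members was not tested, and in bulk samples fewer cells of a type and less RNA per cell cannot be told apart.

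Lymphoid, mast cell and erythroid markers were mostly at or near 0. Of 10 T and NK cell markers, 6 had no read, Cd3e, Cd4, Cd8a and Ncr1 among them, and the list summed to 0.488 to 0.743 CPM in IRF2_KO and 0.909 to 1.07 CPM in Parental. Ms4a1 and Pax5 of the B and plasma cell list had no read, and its sum of 1994 to 2051 CPM in IRF2_KO and 1678 to 1719 CPM in Parental came almost wholly from Xbp1 and Sdc1. Of the 3 tested genes of that list, 1 rose, 1 fell and 1 did not pass, against 23.6% of all genes in each direction. Sdc1 rose, with 665 ± 19.4 CPM in IRF2_KO and 374 ± 13.3 CPM in Parental (log2 fold change 0.83). Xbp1 did not pass (0.03). Ebf1, a factor of early B cells, fell (log2 fold change -3.33, edgeR adjusted p = 1.17e-09). It had 15, 9 and 8 reads in the IRF2_KO libraries and 133, 126 and 140 reads in the Parental libraries. Cpa3, Fcer1a and Prss34 of the mast cell and basophil list had no read, nor had Hba-a1 and Car1 of the erythroid list. Ms4a2 of the mast cell and basophil list had 8.98 ± 0.333 CPM in IRF2_KO and 9.93 ± 0.272 CPM in Parental. Mcpt8 of the same list had 3.68 ± 0.567 CPM in IRF2_KO and 3.57 ± 0.211 CPM in Parental. Neither passed the test, and nearly all of the sum of that list was Ms4a2 and Mcpt8. The mast cell list summed to 12.5 to 13.3 CPM in IRF2_KO and 13.5 to 14.0 CPM in Parental, and the erythroid list to 447 to 509 CPM in IRF2_KO and 688 to 750.4 CPM in Parental, nearly all of it Tfrc.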

How the data were processed

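RNA sequencing libraries of 6 samples were grouped by their group label, 3 IRF2_KO and 3 Parental, and numbered in record order, since the labels give no replicate number. Per the submitters' processing notes the authors aligned reads with GSNAP to GRCm38. Not given in the sources used here are versions, annotation and any use of strand in counting. Per the labels' protocols a total RNA kit was used, while the molecule label reads polyA, and which applies was not settled. The deposited counts are, per the file headers, reads aligned uniquely to each gene, so genes with near-identical copies are undercounted. An RPKM adjusted by size factors, also deposited by the authors, holds the same counts rescaled, to within a constant for each library, for the 10251 genes with at least 100 reads in every library (largest relative deviation 9.55e-15).

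Symbols and positions came from RefSeq on GRCm38.p6 (31049 IDs) and, for 78 more, from GENCODE M21. The 5401 IDs without a name held 1.85% to 1.91% of the counts and stayed in the test. Libraries held 29070160 to 39925038 counts. Libraries of a group differed beyond counting noise, with a chi-square per gene of 2.78 to 10.1.

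Counts were filtered with filterByExpr, scaled by TMM (factors 0.987 to 1.02) and tested with edgeR 4.0.16 in R 4.3.3 by the robust two-sided quasi-likelihood F-test, adjusted by Benjamini-Hochberg over all tested genes. The SE is the log2 fold change over the square root of F. Levels per length used the deposited RPKM without a test. Promoter windows were searched on both strands. The test was tried on simulated data with known changes. A floor of 3 reads covers counting error only.

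Members, lists and rules were chosen with earlier results of these data known. Named are the members, up to 4 genes per pathway list with the smallest adjusted p, genes needed to explain a count, nearest neighbours by position, and for members with an absolute log2 fold change of at least 1 the 3 genes of nearest profile with a mean of at least 2 CPM. Of 182 list entries 180 were matched, and some genes of the lists are not reported here or counted in them. Genes of the cell type lists were named after their values were seen. Alternatives were library size alone, upper-quartile and RLE factors, limma-voom, DESeq2 1.42.0, and limma-trend (limma 3.58.1) on log2 of RPKM plus 0.1 or plus 1, other filters and thresholds, removal of the 100 most abundant genes, and each library left out. Running them on the named genes that are no members was added after seeing the data. Protein sequences were not used here.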

Additional observations from a re-analysis of the deposited data

How the results depend on the processing

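No call of a member reversed under any of the 17 alternatives. Irf5 gave log2 fold changes of 0.85 to 1.12, Irf8 of 0.66 to 1.12, Irf9 of 2.10 to 2.47 and Irf7 of 2.18 to 4.34, the lowest with 1 added to the RPKM, and all passed each time. Irf2 (-0.12 to -0.05) and Irf3 (-0.09 to -0.003) passed under none. Irf1 gave 0.28 to 0.37 and passed except against a 1.5-fold change, where its log2 fold change of 0.32 had an edgeR adjusted p of 1. That test, which asks for more than 1.5-fold, called 718 genes higher and 301 lower, and of the pathway lists 17 higher and 0 lower, against 32 higher and 10 lower by the test the report uses. It also ended the call of every pathway-list gene or neighbour with a change of 0.66 or less on the log2 scale. Stat2, Sting1, Kat2a and Rnf31 were among these. By DESeq2 the calls of Ifnar1, Batf, Ticam2, Irak1, Exoc2, Slc22a5 and Gm16675 were lost, and with library size alone those of Slc15a4, Ticam2, Traf6, Exoc2 and Gm16675. With an adjusted p under 0.01 the pathway lists had 6 lower genes. With a library left out they had 6 to 11 lower genes, 6 without IRF2_KO 3, and 29 to 33 higher. Over all genes, leaving out a library gave 2717 to 3158 higher and 2539 to 3099 lower. No paired analysis was possible because the labels carry no replicate numbers. Depth limits Irf4 and the interferon genes: 3 reads equal 0.0751 to 0.103 CPM, and differences between groups under that level could not be shown.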
